A study of Oryctolagus cuniculus with 20 samples.

Results

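PLAU encodes urokinase, and SERPINB2 encodes plasminogen activator inhibitor 2, an inhibitor of urokinase. Both genes were measured in condylar cartilage of untreated rabbits and of other rabbits after surgical derangement of the jaw joint. Their members are every probe that the array files name or describe as one of these genes. This gave 3 probes for PLAU and 2 for SERPINB2, that is 5 of 43603 probes and 2 of 873 genes that carry a name here. The pair was chosen by the signal of these probes across the 5 groups, that is by the values described below. Their levels and differences are therefore given as a description, with no test, and tests are given only for other genes of the plasminogen system.

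Urokinase is a secreted serine protease that cleaves plasminogen to plasmin. It acts while bound to its receptor on the cell surface, and plasmin in turn degrades fibrin and can activate latent matrix metalloproteinases. Serpins hold the protease in check. SERPINB2 is one of them. It is made largely as an intracellular protein and is known for strong induction in inflamed tissues. In joints, chondrocytes and synovial cells can produce urokinase, and plasmin is counted among the enzymes of cartilage matrix turnover.

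The temporomandibular joint is the hinge of the jaw, and its condyle is capped by cartilage. RNA of this cartilage from male rabbits, 6 months old, was hybridised to 20 one-colour arrays, 1 sample per array. The 5 groups of 4 were untreated rabbits and rabbits taken 1, 2, 4 and 8 weeks after the left joint had been subjected to internal derangement, in which the disc of the joint is displaced. No group was labelled as sham-operated, and the untreated rabbits carried no time label. What the operation itself or the passing weeks did cannot be told apart from what derangement did.

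The untreated and 2-week arrays were scanned on 1 day, and the 1-, 4- and 8-week arrays on another. Each group also lay on a slide of its own, 5 slides in all. The comparisons of 1, 4 and 8 weeks with untreated cartilage cannot be told apart from the scan day, while 2 weeks against untreated, and 1, 4 and 8 weeks among themselves, share a day. No comparison between groups, within a day or across days, can be told apart from a difference between slides. Between 49.1% and 66.4% of spots per array were well above background, the scanner software's call used below as the limit of detection. The cartilage collagen gene COL2A1 and the aggrecan gene ACAN were well above background on all arrays, whereas SOX9, the chondrocyte transcription factor, was so on 0 of the 8 arrays of the first scan day and on 8 of the 12 of the second. Skeletal muscle transcripts were present in the untreated samples. The summed level of 5 muscle markers, relative to the array's 75th percentile of signal, ran from 3.49 to 384 there and did not exceed 2.17 in any operated sample. It was highest in untreated replicates 2 and 1 (384 and 74.4), so results that rest on them are also given without both.

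The probes are 60 bases long, and their sequences show where each transcript was read. Those in the middle of the transcripts are printed whole, as deposited, because the SERPINB2 pair gave different readings within a short distance.
PLAU base 971: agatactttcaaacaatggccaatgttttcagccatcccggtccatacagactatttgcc
SERPINB2 base 653: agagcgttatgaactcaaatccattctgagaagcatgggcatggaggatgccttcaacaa
SERPINB2 base 722: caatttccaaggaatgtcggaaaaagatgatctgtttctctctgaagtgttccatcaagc
The bases in these names are the start positions given in the files. The SERPINB2 probes are separated by only 9 bases of transcript, and 45% and 40% of their bases are G or C. The other 2 PLAU probes start at bases 2173 and 2239, with 6 bases between them, toward the 3′ end of the transcript. The last of them holds the pentamer ATTTA, the core of AU-rich elements, here in capitals.
PLAU bases 24 to 52 of the probe at 2239: tgtacactaaatATTTAataattatattc
This pentamer was found in 7.09% of all array probes on the printed strand, in 12.3% on either strand, and on the printed strand in 1 of the 5 probes of PLAU and SERPINB2. The match is a description of the letters.

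PLAU was lower in operated than in untreated cartilage at all 4 times, on all 3 probes. Levels are log2 units relative to each array's 75th percentile of signal, and each probe has its own scale. On the probe at 2173, which had the highest mean of the 3, the untreated arrays read 3.68, 3.44, 3.58 and 2.61. The 1-week arrays read 2.44, 2.68, 2.23 and 1.73, and the 2-week arrays 2.84, 2.96, 2.54 and 2.46. The 4-week arrays read 2.34, 2.49, 2.13 and 2.30, and the 8-week arrays 2.28, 2.59, 2.74 and 3.07. All untreated arrays but 1 thus stood above every operated array, and the remaining untreated array, replicate 4, lay among the operated ones. Fewer cells that make PLAU and less PLAU RNA per cell cannot be told apart in such bulk samples.

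**Figure D1:**
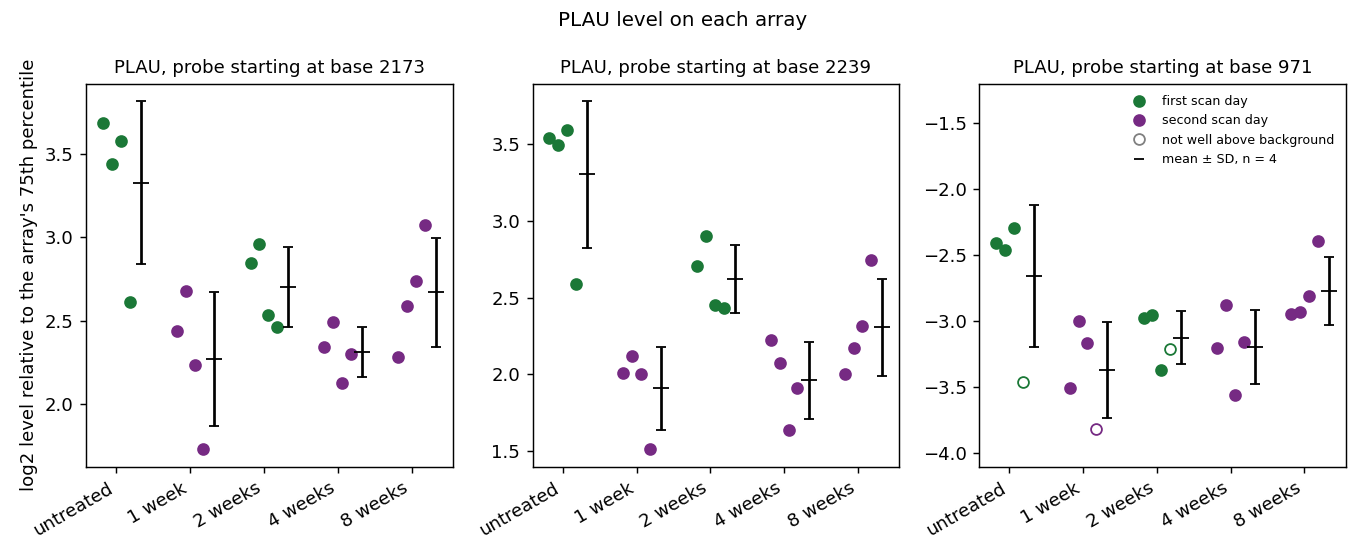
PLAU level on each of the 20 arrays (points, log2 units relative to the array's 75th percentile) in the 5 groups, 1 panel per probe, with mean and SD (n = 4 each). Green points are arrays of the first scan day and purple points those of the second, and open points were not well above background. On each probe 3 untreated arrays lay high and untreated replicate 4 lay low, at 2.61, 2.59 and -3.46.

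The group means on this probe were 3.33 ± 0.49 in untreated cartilage, 2.27 ± 0.40 at 1 week, 2.70 ± 0.24 at 2 weeks, 2.31 ± 0.15 at 4 weeks and 2.67 ± 0.33 at 8 weeks (SD, n = 4 each). Against untreated cartilage the log2 differences were -1.06, -0.63, -1.01 and -0.66 in order of time, each with a standard error (SE) of 0.23 from the linear model fitted across all probes. These are levels 2.08-, 1.54-, 2.02- and 1.58-fold lower. The difference at 2 weeks is the only one within a scan day. The groups in descending order were untreated, 2 weeks, 8 weeks, 4 weeks and 1 week. The 2- and 8-week means lay within 1 SD of each other, as did those of 4 and 1 weeks. The untreated mean exceeded that of 2 weeks by more than their pooled SD of 0.38, and that of 8 weeks exceeded 4 weeks by more than their pooled SD of 0.25.

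The probe at 2239 was printed as 5 spots on each array, and the SD among these spots was 0.0137 to 0.0645 log2 units. This is far less than the spread among rabbits of any group. Its untreated arrays read 3.54, 3.49, 3.59 and 2.59. The 1-week arrays read 2.01, 2.12, 2.00 and 1.51, and the 2-week arrays 2.71, 2.90, 2.45 and 2.43. The 4-week arrays read 2.23, 2.07, 1.63 and 1.91, and the 8-week arrays 2.00, 2.17, 2.31 and 2.74. The low untreated sample was again replicate 4, so its low level is not a matter of a single spot. Log2 differences from untreated were -1.40 at 1 week, -0.68 at 2 weeks, -1.34 at 4 weeks and -0.998 at 8 weeks (SE 0.22 each).

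The probe at 971 was dim and was well above background on 3, 3, 3, 4 and 4 arrays of the groups in order of time. Its untreated arrays read -2.41, -2.46, -2.29 and -3.46. At 1 week the levels were -3.51, -3.00, -3.17 and -3.82, and at 2 weeks -2.97, -2.95, -3.37 and -3.21. At 4 weeks they were -3.20, -2.88, -3.56 and -3.16, and at 8 weeks -2.94, -2.93, -2.81 and -2.39. The log2 differences from untreated were -0.72, -0.47, -0.54 and -0.11 in order of time (SE 0.24 each), and that at 8 weeks is well within its error. The 3 probes moved together over the 20 arrays, which is a description of shared RNA samples. Pearson's r was 0.96 between the probes at 2173 and 2239, 0.87 between those at 2173 and 971, and 0.78 between those at 2239 and 971. After each group's mean had been subtracted, these values were 0.94, 0.90 and 0.92.

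Separation of the groups on PLAU depended on the probe. At 1 week 1 of the 3 probes, that at 2239, had all 4 arrays below all untreated arrays, where 5.45% of the 26905 probes kept for the fit did so. At 4 weeks the probes at 2173 and 2239 did so, 2 of 3, against 5.76% of kept probes. None of the 3 did so at 2 weeks or at 8 weeks, where 1.43% and 8.58% of kept probes did. Nothing is read from these counts, since the same values chose the gene. Without untreated replicate 4 the differences on the probe at 2173 were -1.30, -0.87, -1.25 and -0.90. Without untreated replicates 1 and 2, the samples with most muscle transcripts, they were -0.82, -0.39, -0.78 and -0.42. PLAU was thus lower at each time with or without either set of samples, while the size at 2 and 8 weeks was more than 1.5 times smaller without replicates 1 and 2 than with all samples.

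Among the groups of the second scan day PLAU differed less on the probe at 2173 than each of them did from untreated cartilage. On the probe at 2173 the log2 difference was 0.04 ± 0.23 between 4 weeks and 1 week, 0.36 ± 0.23 between 8 and 4 weeks and 0.40 ± 0.23 between 8 weeks and 1 week (SE). The arrays of these groups overlapped on that probe. On the probe at 971 all 8-week arrays lay above all 1-week arrays, by 0.60 ± 0.24 (SE) on average, as did 3.1% of kept probes. Array replicate 4 of the 1-week group gave the lowest PLAU reading on each probe and also had the lowest 75th percentile of signal of all arrays, 174.1. Without that array the difference of 1 week from untreated was -0.88 on the probe at 2173.

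On the monocyte and macrophage list the median summed level was, like PLAU, highest in untreated cartilage. Of 8 genes on that list 4 were measured, CD14, MSR1, TLR4 and MMP12, and each was well above background on some array of every group. Their summed level ran from 5.31 to 8.72 in untreated cartilage, 2.71 to 5.07 at 1 week, 2.63 to 6.21 at 2 weeks, 1.98 to 4.21 at 4 weeks and 2.58 to 5.08 at 8 weeks. The log2 means from untreated to 8 weeks were 2.21, 1.38, 1.61, 0.92 and 1.36 for CD14, and 0.07, -0.72, -0.39, -0.74 and -0.27 for TLR4. They were -2.12, -3.09, -2.87, -4.17 and -3.27 for MSR1, and -0.79, -2.70, -2.88, -4.51 and -3.92 for MMP12. CD14, MSR1 and MMP12 had lower means at 8 weeks than at 1 week, whereas PLAU was higher at 8 weeks. MMP12 was also lower at 2 weeks than at 1 week, unlike PLAU. MMP12 is also among the proteases described below. The fibroblast and synovium list held 6 measured genes of 8, and its summed level ran from 1357 to 1563 in untreated cartilage, 1144 to 1724 at 1 week, 1325 to 1556 at 2 weeks, 1056 to 1279 at 4 weeks and 1195 to 1369 at 8 weeks. The cartilage list, with 4 of its 10 genes measured, had its highest medians where PLAU was lowest. Its median summed level was 510 in untreated cartilage (374 to 748), 902 at 1 week (512 to 2501), 453 at 2 weeks (194 to 507), 739 at 4 weeks (658 to 1375) and 420 at 8 weeks (149.5 to 828). CNMD, chondromodulin, had means of 2.13 in untreated cartilage, 4.44 at 1 week, 1.78 at 2 weeks, 4.53 at 4 weeks and 1.90 at 8 weeks. The part of these cells in the PLAU levels was not tested.

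SERPINB2 was detected on the second scan day only, and by 1 of its 2 probes. The probe at 722 was well above background on all 12 arrays of 1, 4 and 8 weeks and on none of the 8 untreated and 2-week arrays. The 1-week arrays read -2.93, -2.84, -2.38 and -1.70, the 4-week arrays -3.23, -2.90, -3.14 and -2.62, and the 8-week arrays -2.83, -3.03, -2.63 and -2.54. The untreated arrays read -4.73, -5.34, -5.12 and -4.48, and the 2-week arrays -4.26, -5.88, -6.33 and -4.62, all not well above background. The first set does not overlap the second. Group means were -2.46 ± 0.56 at 1 week, -2.76 ± 0.22 at 8 weeks, -2.97 ± 0.27 at 4 weeks, -4.91 ± 0.38 in untreated cartilage and -5.27 ± 0.99 at 2 weeks (SD, n = 4 each), in descending order. Neighbours within the upper 3 and within the lower 2 differ by less than 1 SD of the group with the larger spread.

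**Figure D2:**
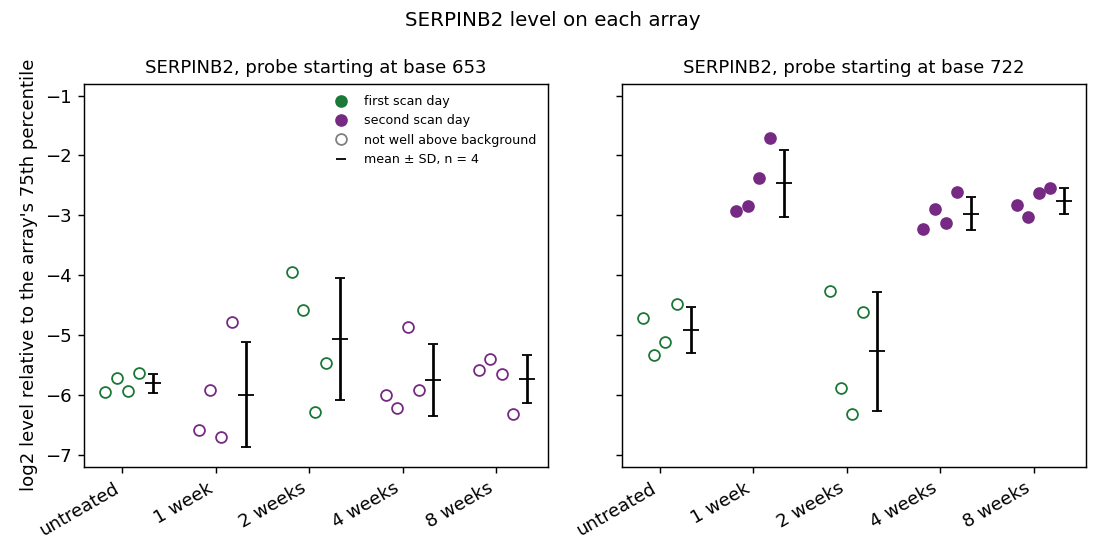
SERPINB2 level on each of the 20 arrays (points, log2 units relative to the array's 75th percentile) in the 5 groups for both probes, with mean and SD (n = 4 each). Filled points were well above background, and only the 12 arrays of the second scan day (purple) at base 722 are filled. At base 653 all 20 points are open.

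Because the probe was below the limit of detection in untreated cartilage, its level was set against a limit for the dim arrays. SERPINB2 was 2.56-fold above this limit at 1 week, 1.80-fold at 4 weeks and 2.08-fold at 8 weeks. Each fold compares the bright group's mean with a mean of limits over the dim arrays. The limit of an array is the dimmest level still called well above background there, or the probe's own reading where that is higher. Against the limit at 2 weeks the folds were 2.50, 1.76 and 2.04. These folds are not strict minima, since an undetected probe can read above such a limit. The dimmest PLAU probe was undetected at -3.46 in untreated replicate 4 and at -3.21 in 2-week replicate 4. The mean limits were -3.82 in untreated and -3.78 in 2-week cartilage. With the normexp correction given below, the differences from untreated were also smaller than the log2 values of these folds. The fitted log2 differences from untreated, which rest on the dim readings, were 2.45, -0.36, 1.94 and 2.16 in order of time (SE 0.37 each). At 1, 4 and 8 weeks all 4 arrays lay above all untreated arrays, as did 11.3%, 12% and 13.9% of kept probes. Nothing is read from this, since the same values chose the gene.

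No comparison within a scan day separated SERPINB2. Untreated and 2-week cartilage were both below detection, so no fold is given. Within the second day the log2 difference was -0.51 between 4 weeks and 1 week, 0.21 between 8 and 4 weeks and -0.30 between 8 weeks and 1 week (SE 0.37 each), and the arrays overlapped each time. Of all 43603 probes, 78 (0.179%) showed the same pattern of detection on all 12 arrays of the second day and none of the first. The converse pattern was shown by 0 probes. Of the 13863 probes detected on no array of the first day, those 78 make up 0.563%. Among kept probes, 2.83% had every array of the second day above every array of the first, and 0.331% the reverse. A rise of SERPINB2 after surgery and a difference between scan days cannot be told apart here.

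The second SERPINB2 probe, at 653, was detected on 0 of 20 arrays and was not kept for the fit. Its mean levels were -5.81 in untreated cartilage, -6.00 at 1 week, -5.07 at 2 weeks, -5.75 at 4 weeks and -5.74 at 8 weeks. With no detected level it gives no fold in either direction. The probes thus differ in detection at 1, 4 and 8 weeks although they lie 9 bases apart on the transcript.

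Before background subtraction the spots at 722 read 48.4 to 76.3 arbitrary units (median 64.0) on the first scan day and 72.1 to 145 (median 117) on the second. Those at 653 read 50.3 to 82.3 (median 61.0) and 43.2 to 79.6 (median 57.9). The local background beside the spots at 722 was 22.5 to 30 on the first day and 21 to 32 on the second. The amount that the scanner software took off the spot at 722 was larger than the local background, at 43.8 to 56.9 on the first day and 38.2 to 62.9 on the second. Replicate 2 of the 1-week group had a spot signal of 72.1, below untreated replicate 1 (75.2) and 2-week replicate 1 (76.3). After subtraction it read 33.9, above their 18.4 and 24.7. The other 11 spots of the second day read above all 8 of the first also before subtraction. When the background was instead modelled with normexp and an offset of 50, which compresses dim signals, the SERPINB2 differences from untreated were 0.67 at 1 week, 0.38 at 8 weeks and 0.21 at 4 weeks (SE 0.41 each), the last 2 within 1 SE of 0.

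**Figure D3:**
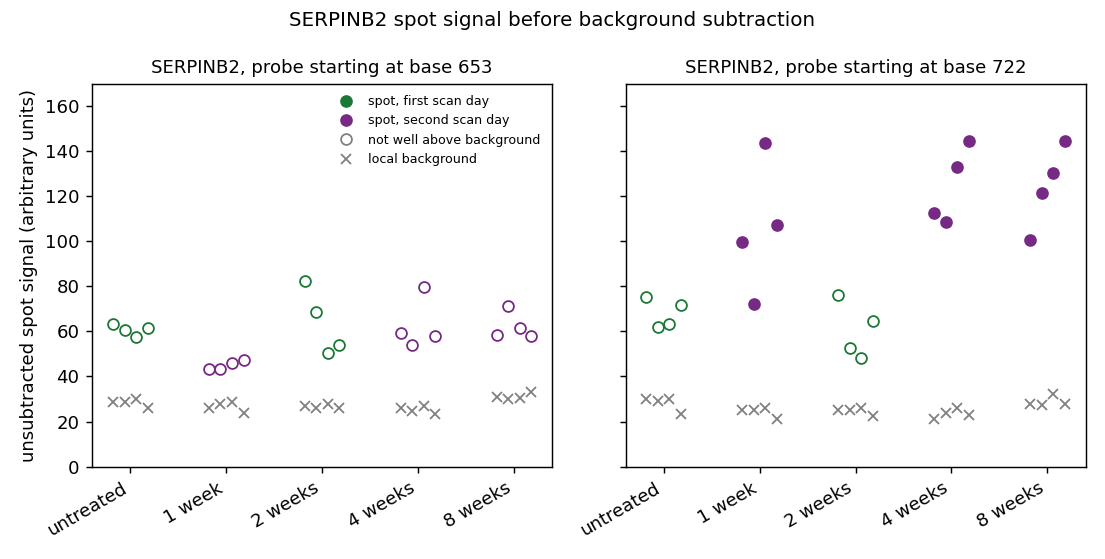
Mean spot signal before background subtraction (circles, arbitrary linear units) and local background (crosses) on each array for both SERPINB2 probes. At base 722 the arrays of the second scan day (purple, 72.1 to 145) read above nearly all of the first (green, 48.4 to 76.3), while at base 653 the days overlap.

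The summed level of 2 neutrophil markers moved with the SERPINB2 pattern, more through CXCR2 than through S100A9. Of 7 genes on that list 2 were measured, CXCR2 and S100A9, both well above background on all arrays. Their summed level ran from 0.551 to 1.16 in untreated and 0.454 to 0.890 in 2-week cartilage. It ran from 1.17 to 2.00 at 1 week, 1.30 to 1.95 at 4 weeks and 1.21 to 1.33 at 8 weeks, so it too followed the scan day. CXCR2 had means of -1.64 in untreated and -1.65 in 2-week cartilage, and of -0.09, -0.30 and -0.50 at 1, 4 and 8 weeks. S100A9 had means of -1.31 ± 0.63 and -1.46 ± 0.58, and of -0.91 ± 0.25, -0.48 ± 0.60 and -0.78 ± 0.19, in the same order (SD). The part of these markers in the SERPINB2 level was not tested.

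The other genes of the plasminogen system were taken from lists of 93 genes, of which 34 had a probe kept for the fit. The zymogen gene PLG was not among these. Calls are limma tests with Benjamini-Hochberg adjustment over all 26905 kept probes, at adjusted p under 0.05. At 1 week 2 of the 34 were higher and 0 lower than in untreated cartilage, where 9.75% of kept probes were higher and 4.13% lower. At 2 weeks 0 were called, where 0.457% of kept probes were called. There 5 of the 34 had an unadjusted p under 0.05, a looser limit for which no share of kept probes is given. At 4 weeks 1 was higher and 3 were lower (6.43% and 2.15% of kept probes), and at 8 weeks 0 were higher and 2 lower (8.56% and 4.23%). The median log2 differences of the 34 were -0.29, -0.11, -0.10 and 0.01 in order of time, beside 0.03, 0.04, 0.03 and 0.04 over all kept probes. The F test for any difference among the 5 groups called 2 of the 34, TNF and EGR1, where 15.8% of kept probes were called.

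The receptor and the second activator did not pass the test. PLAUR, the urokinase receptor, had means of 0.82, 0.84, 0.68, 0.79 and 0.65 from untreated to 8 weeks, and its log2 differences from untreated lay between -0.17 and 0.02 (SE 0.34 each). PLAT, the tissue-type activator, had a mean of -2.25 in untreated cartilage and -3.28 at 1 week, a difference of -1.03 ± 0.42 (SE, limma, adjusted p = 0.111), with replicate 4 of the 1-week group at -4.58. Its means at 2 and 4 weeks were -2.33 and -2.21, and at 8 weeks it differed from untreated by 0.24 ± 0.42 (SE). SERPINF2, the plasmin inhibitor alpha-2-antiplasmin, differed by -0.88 ± 0.46 at 1 week (SE, limma, adjusted p = 0.216). None of the 9 measured receptors and binding partners was called against untreated cartilage at any time. Of kept probes, 9.75%, 6.43% and 8.56% were called higher at 1, 4 and 8 weeks, and 4.13%, 2.15% and 4.23% lower. At 2 weeks 0.457% were called. Nothing particular to the 9 is read from this. At an unadjusted limma p under 0.05 there were 2, 0, 1 and 0 in order of time, with no share of kept probes given for that limit. VTN, the vitronectin that binds the urokinase receptor, differed by 0.93 ± 0.55 (SE) at 8 weeks, and S100A10, a plasminogen-binding cell surface subunit, by -0.48 ± 0.24.

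**Figure D4:**
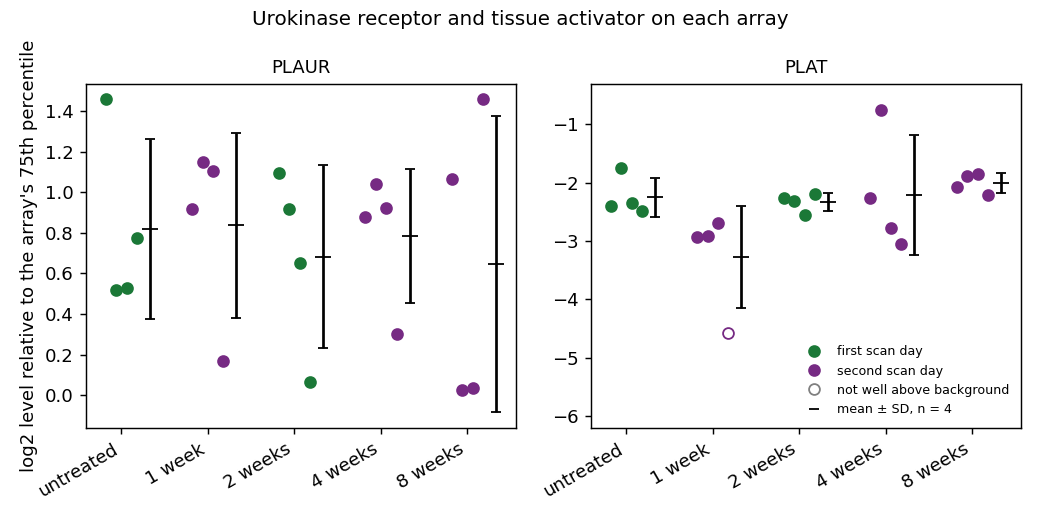
Level of PLAUR and PLAT on each of the 20 arrays (points, log2 units relative to the array's 75th percentile, open where not well above background) in the 5 groups, with mean and SD (n = 4 each). PLAUR means lay between 0.65 and 0.84, and 1 PLAT reading at 1 week (-4.58) was below detection.

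The list of substrates and proteases downstream of plasmin, which also holds the TIMP inhibitors of metalloproteinases, had 12 measured genes. Of these, 2 fell at 4 weeks, MMP3 and MMP12, and 1 at 8 weeks, MMP12, where 2.15% and 4.23% of kept probes were lower. MMP3, stromelysin, which plasmin can activate, fell at 4 weeks by 1.01 ± 0.26 on the log2 scale (SE, limma, adjusted p = 0.0217), from -0.53, 0.17, 0.11 and -0.37 to -0.54, -1.35, -1.46 and -1.30. The arrays did not overlap, with untreated replicate 1 and 4-week replicate 1 nearly equal. MMP12, macrophage elastase, fell by 3.72 ± 0.92 at 4 weeks and by 3.12 ± 0.92 at 8 weeks (SE, limma, adjusted p = 0.0173 and 0.0326). It was well above background on 4 of 4 untreated arrays but on 1 of 4 at each of these times, so the sizes rest partly on dim readings. MMP1, the interstitial collagenase, differed by -4.26 ± 1.36 at 4 weeks and was not called (SE, limma, adjusted p = 0.0604), with only 1 of 4 arrays well above background at that time. MMP9 and MMP13, a gelatinase and the collagenase of type II collagen, differed from untreated by -0.06 to 0.20 and by -0.63 to 0.02 and were not called. TGFB1, a growth factor that plasmin can release from its latent form, was higher by 0.56 ± 0.20 at 8 weeks without being called (SE, limma, adjusted p = 0.0718).

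On the list of signals that induce PLAU or SERPINB2, or antagonise such signals, 3 of 6 measured genes were called in at least 1 comparison with untreated cartilage, where 20.6% of kept probes were. TNF, an inflammatory cytokine known to induce SERPINB2, rose by 0.97 ± 0.28 at 1 week and by 1.31 ± 0.28 at 4 weeks (SE, limma, adjusted p = 0.0269 and 0.0062) on its probe of highest mean, with 3 of its 5 probes in that direction and means over its probes of 0.28 at 1 week and -0.04 at 4 weeks, neither called. EGR1, an immediate early transcription factor, was well above background on no untreated array. Set against the same kind of limit as SERPINB2, EGR1 was 2.17-fold higher at 1 week, which is not a strict minimum. Its fitted difference, which rests on the dim readings, was 1.38 ± 0.35 (SE, limma, adjusted p = 0.0147). IL1RN, the antagonist of interleukin-1, fell by 1.14 ± 0.31 at 4 weeks and by 1.07 ± 0.31 at 8 weeks (SE, limma, adjusted p = 0.0289 and 0.0293). Its untreated arrays read 3.04, 3.33, 3.75 and 2.96, and all 4- and 8-week arrays lay at 2.45 or below. All of these calls cross the scan days.

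**Figure D5:**
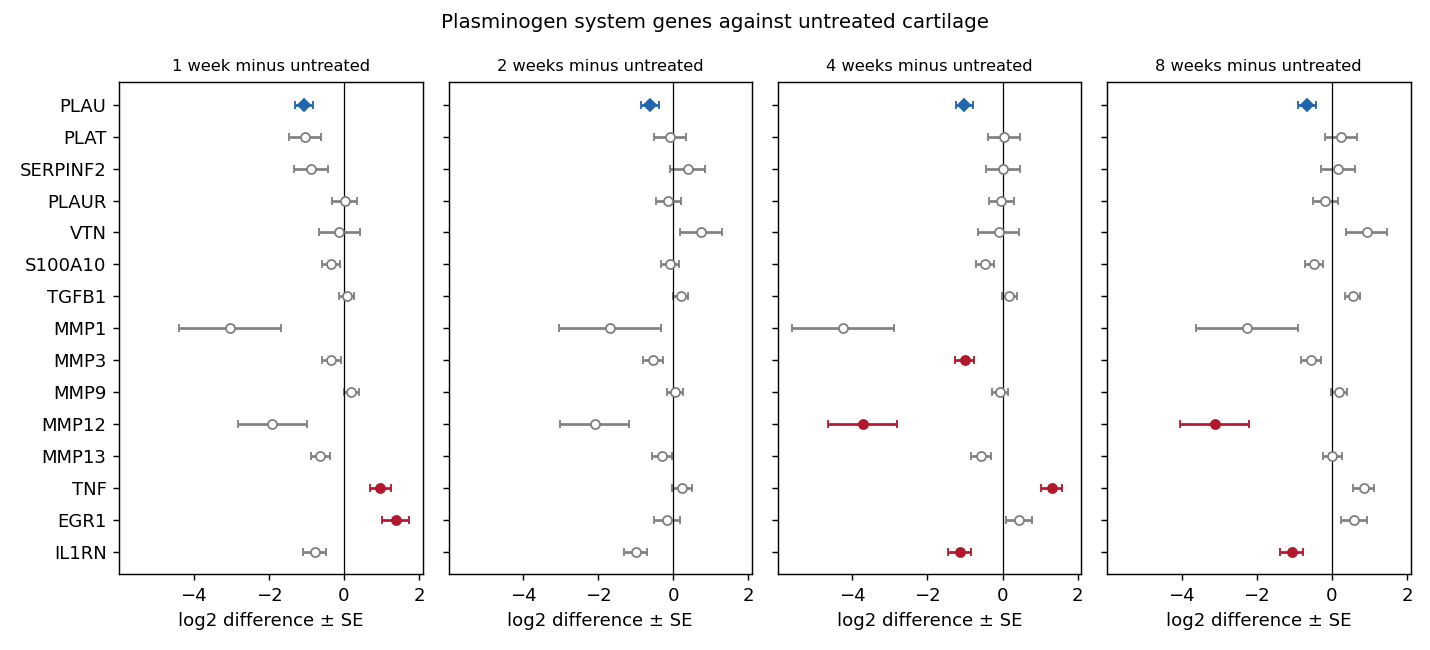
Log2 difference from untreated cartilage (points, with SE bars from the fit over 20 arrays) of PLAU and 14 other plasminogen system genes at each time. Red filled points were called by limma at adjusted p under 0.05, open points were not, and PLAU (blue diamonds) was not tested. PLAU lay below 0 in all 4 panels, at -1.06, -0.63, -1.01 and -0.66, and no gene was called at 2 weeks.

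Most of these calls were lost in some of the fits that left out 1 or 2 samples. Smaller groups also give the test less power, so a lost call does not show that the sample left out had made it. Leaving out 1 array reversed no direction, and MMP3 at 4 weeks, for example, ran from -1.22 to -0.90. Without untreated replicates 1 and 2 only the TNF call at 4 weeks held among those against untreated cartilage (limma, adjusted p = 0.0168). The TNF call at 1 week was also lost without untreated replicate 1 or 4 or 1-week replicate 2 or 4 (adjusted p = 0.0615 to 0.0959), and EGR1 without 1-week replicate 4 (adjusted p = 0.0512). Neither was called when only the 1-week and untreated arrays were fitted (adjusted p = 0.125 for TNF and 0.0508 for EGR1). At 4 weeks MMP3 was lost without untreated replicate 2 or 3 or 4-week replicate 2, 3 or 4 (adjusted p = 0.0646 to 0.073), MMP12 without untreated replicate 1 or 3 or 4-week replicate 2 or 3 (0.0535 to 0.0655), and IL1RN without untreated replicate 2 or 3 or 4-week replicate 1, 2 or 4 (0.058 to 0.0917). At 8 weeks MMP12 was lost without any of untreated replicates 1 to 3 or 8-week replicates 1 to 3 (0.0642 to 0.104), and IL1RN without untreated replicate 2 or 3 or 8-week replicate 1, 3 or 4 (0.0575 to 0.0883). More list genes were called at 1 week without 1-week replicate 1 or 3 or 4-week replicate 1 (4 each), at 8 weeks without 1-week replicate 4 (5), and at 2 weeks without 2-week replicate 4 (1). The share of kept probes called in these fits is not given. With normexp background correction none of the 8 calls remained.

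Between times, only steps across the scan days brought calls among the 34. From 1 to 2 weeks EGR1 fell by 1.54 ± 0.35 (SE, limma, adjusted p = 0.00814, where 11.4% of kept probes were called), a size that rests partly on dim readings, since 1 of 4 arrays was well above background at 2 weeks. From 2 to 4 weeks TNF rose by 1.07 ± 0.28 on its probe of highest mean (SE, limma, adjusted p = 0.0348, where 4.29% were called). On the mean over its 5 probes this step was not called. Within the second day limma called 0 of 34 for 8 minus 4, 4 minus 1 and 8 minus 1 weeks. At the same adjusted limit 0.565%, 1.08% and 0.0149% of kept probes were called. Of the 34, 3, 3 and 9 had an unadjusted p under 0.05. No share of kept probes is given for that looser limit, so nothing is read from these 3 counts. The TNF step was lost without 2-week replicate 1, 2 or 3 or 4-week replicate 2 or 3. From 1 to 2 weeks there were 3 calls without 1-week replicate 1, and 2 without 1-week replicate 4, 2-week replicate 1 or 4-week replicate 1 or 4. The F test called 1 gene without untreated replicate 1 or 2 or 2-week replicate 2 or 3, and 5 without 4-week replicate 1. Within the second day 1 gene was called between 8 and 4 weeks without 1-week replicate 4 or 4-week replicate 1. No share of kept probes is given for these smaller fits, so nothing particular to the lists is read from their counts.

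The named genes most like PLAU over the 20 arrays were found by Pearson's correlation of levels among 644 genes, as a description. They were IL15, an interleukin (r = 0.88), LUM, a collagen-binding proteoglycan (0.85), CSTB, a cysteine protease inhibitor (0.80), CLIC1, a chloride channel protein (0.73), and ABCC9, a potassium channel regulator (0.72). The lowest values were those of CSN2, a milk casein (-0.84), GJA5, a connexin (-0.83), and PON3, a paraoxonase (-0.81). After subtraction of the group means, IL15 and LUM kept r = 0.76 each with PLAU, while ABCC9 had 0.32. LUM had means of 7.03 in untreated cartilage, 5.71 at 1 week, 6.48 at 2 weeks, 5.89 at 4 weeks and 5.85 at 8 weeks, so that, like PLAU, it was highest in untreated and next highest in 2-week cartilage.

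The genes most like SERPINB2 were those that share its step between scan days. NPPA, a natriuretic peptide, had r = 0.90, the transporters SLC47A2, SLC12A3 and SLC29A2 had 0.89, 0.89 and 0.87, and PRLR, the prolactin receptor, had 0.87. After subtraction of the group means these values were 0.35, 0.38, 0.20, -0.0014 and 0.34 for NPPA, SLC47A2, SLC12A3, SLC29A2 and PRLR. SLC47A2 and SLC12A3 were, like SERPINB2, detected on 0 arrays of the first day and 12 of the second, and NPPA on 0 and 6. The lowest values were those of SNURF, DHRS4 and NASP (-0.83, -0.81 and -0.78).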

How the data were processed

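The values are the deposited, background-subtracted spot intensity on a linear scale, made with Agilent Feature Extraction 10.7.1.1 per the file headers, which also sets very low signals to a small value above 0. RNA was labelled with Cy3 per the labels' protocols. Spots flagged as outliers were left out, and repeated spots of a probe were averaged. Levels are log2 of this deposited intensity minus that of the array's 75th percentile. Probes well above background on at least 3 of 4 arrays of at least 1 group were kept (26905 of 43603). Differences and SEs came from limma 3.58.1 (R 4.3.3; lmFit and eBayes), in a model of 5 group means over all 20 arrays, checked on simulated data. P-values are two-sided. A gene is its kept probe of highest mean.

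The authors' value table, also deposited intensity, matched the scanner values with no centring in 16 columns. The 4 columns of the 8-week group matched other arrays of that group, so replicate numbers within it are uncertain.

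Probe names, for 2567 probes, were taken from the files or a RefSeq table (assembly mOryCun1.1), and the other probes are unnamed here. The members and lists were chosen with earlier results of these data known. A gene of the lists is not reported here and is left out of their counts. Named genes are all probes of PLAU and SERPINB2, the other core genes of the plasminogen system, list genes called against untreated or by the F test, and the 5 most and 3 least alike genes. Replicate numbers did not pair the separate rabbits. The alternatives were other scalings, background corrections and filters, other sets of arrays, the replicate block, the authors' table and a mean over probes. With 4 arrays in each group, precision is limited by their number.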

Additional observations from a re-analysis of the deposited data

Results flagged for a closer look

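Among 70 sets of 4 arrays of other plasminogen system genes, 6 held a sample far from the other 3, where chance gives about 1 in 20. At 1 week, replicate 4 was low for PLAT (-4.58), VTN (-2.41), TGFB1 (-0.53) and MMP13 (5.92) and high for MMP1 (0.65). MMP3 was low in 8-week replicate 4 (-0.999).

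Of the differences between times, EGR1 changed by -1.54 from 1 to 2 weeks, and TNF rose by 1.07 from 2 to 4 weeks (limma, adjusted p = 0.00814 and 0.0348). The TNF value is that of its probe of highest mean, and the mean over its probes was not called. EGR1 was well above background on 1 of 4 arrays at 2 weeks, so its size rests partly on dim readings. Each was a test of the step itself, and each step lies between groups scanned on different days.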

How the results depend on the processing

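PLAU stayed below untreated at each time in all alternatives run, at -1.30 to -0.82 (1 week), -0.87 to -0.39 (2 weeks), -1.25 to -0.78 (4 weeks) and -0.90 to -0.42 (8 weeks). These are values of the probe at 2173, or of the mean over probes where that was the alternative. Other probes lay outside these ranges in the main fit, that at 2239 at -1.40 at 1 week and that at 971 at -0.11 ± 0.24 (SE) at 8 weeks. The SERPINB2 difference was positive at 1, 4 and 8 weeks in all alternatives run, but with normexp it was 0.67, 0.21 and 0.38 (SE 0.41), the last 2 within 1 SE of 0. Centring on the median, which shifts all differences by -0.14, 0.01, -0.13 and -0.17 in order of time, changed no direction of either gene at 1, 4 or 8 weeks. It moved the share of higher among all called probes from 70.3% to 49.5% at 1 week, from 75% to 53.2% at 4 weeks and from 66.9% to 39% at 8 weeks. Normexp left 37 higher and 24 lower probes called at 1 week, beside 2624 and 1110.

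Of the 34 list genes, 2, 0, 4 and 2 were called at 1, 2, 4 and 8 weeks, 1 from 1 to 2 weeks, 1 from 2 to 4 weeks and 2 by the F test. Median centring gave 4 at 1 week, 2 from 1 to 2 weeks and 5 by the F test. Quantile normalization gave 0 from 2 to 4 weeks and 1 by the F test, and normexp gave 0 at 1, 4 and 8 weeks, from 1 to 2 weeks, from 2 to 4 weeks and by the F test. Without a filter there was 1 at 8 weeks and 0 from 2 to 4 weeks. Probes above background on all 20 arrays gave 1 at 1 week, 1 at 8 weeks, 0 from 1 to 2 weeks and 1 by the F test. The mean over a gene's probes gave 0 from 2 to 4 weeks and turned TNF at 4 weeks to -0.044 and lowered it to 0.28 at 1 week (adjusted p = 0.555). Only the groups compared gave 1 at 1 week, neither TNF nor EGR1, 5 at 8 weeks, 0 from 1 to 2 weeks, 0 from 2 to 4 weeks and 1 from 4 to 8 weeks. Leaving out untreated replicates 1 and 2, chosen after seeing the data, gave 0, 1 and 0 at 1, 4 and 8 weeks and 1 by the F test. The number of calls over all kept probes changed with the setting too, at 4 weeks from 1730 higher and 578 lower to 19 and 11 with normexp. For most settings, and for the fits without 1 array below, no share of all kept probes is given. Changes in these counts are therefore not read as particular to the lists. The causes were not tested.

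Leaving out 1 array gave 1 to 4 calls at 1 week, 0 to 1 at 2 weeks, 1 to 6 at 4 weeks and 0 to 5 at 8 weeks. It gave 1 to 3 from 1 to 2 weeks, 0 to 2 from 2 to 4 weeks, 0 to 1 from 4 to 8 weeks and 1 to 5 by the F test. Same-numbered arrays did not deviate together (median correlation 0.0083 over 40 pairs, 6 of 20 arrays best with their own number), and the replicate block gave 3, 0, 4 and 3 calls in order of time, with PLAU at 1 week at -1.06.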
